A study of Mus musculus with 6 samples.

Results

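Complex I of the respiratory chain was examined in mouse striatum, across the 44 genes whose symbol starts with Nduf, out of 18193 genes that the array names by a probe set with a single gene symbol. Each gene was read by its brightest such probe set over all arrays. By their symbols 36 are subunits (Ndufa, Ndufab, Ndufb, Ndufc, Ndufs and Ndufv) and 8 are assembly factors (Ndufaf), and all 44 passed the filter on dim probe sets. The knockout (KO) group held 3 mice null for PGC-1alpha (PGC-1a-/-) and the wild-type (WT) group 3 littermates (PGC-1a+/+), all female, 6 months old and bred from heterozygous founders, with 1 Affymetrix array of striatal RNA per mouse. The labels name no strain and no restriction of the null allele to a cell type. The array of KO 3 is labelled cytoplasmic RNA and the other 5 total RNA, although the series text gives total RNA for all, so the value without KO 3 is given for the 10 of the 44 genes in which leaving it out moved the difference by over 1.5 times or turned its sign.

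Complex I is an L-shaped enzyme of the inner mitochondrial membrane that oxidises NADH and passes the electrons to ubiquinone while it pumps protons. Its matrix arm has a tip that binds NADH (the N part) and a stem that reduces ubiquinone (the Q part), and its membrane arm carries the proton pumps. Most subunits are encoded in the nucleus, a few pump subunits in mitochondrial DNA, and assembly factors help to build the enzyme without staying in it. PGC-1alpha is a transcriptional coactivator known to raise genes of oxidative metabolism together with factors such as NRF-1 and the oestrogen-related receptors, and the comparison asks how its absence bears on these transcripts in the striatum.

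Promoters are shown for the 5 members with a form of the NRF-1 motif in the bases printed, beside that of the member with the smallest p-value, which holds none. Each line gives the 150 bases before a transcription start of the RefSeq annotation (GRCm38.p6), 5′ to 3′ on the gene's strand, with matches to the motif's wider form (GCGC, any base, then TGCGC) on either strand in capitals. The intervals are chr2:36049339-36049488 (minus strand) for Ndufa8, chr6:24527691-24527840 (minus strand) for Ndufa5, chr4:123718187-123718336 (minus strand) for Ndufs5, chr16:37654369-37654518 (minus strand) for Ndufb4, chr4:24897933-24898082 (plus strand) for Ndufaf4 and chr3:51408956-51409105 (minus strand) for Ndufc1.
Ndufa8: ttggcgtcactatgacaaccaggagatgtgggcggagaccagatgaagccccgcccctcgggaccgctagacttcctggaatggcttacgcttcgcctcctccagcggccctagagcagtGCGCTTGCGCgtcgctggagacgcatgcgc
Ndufa5: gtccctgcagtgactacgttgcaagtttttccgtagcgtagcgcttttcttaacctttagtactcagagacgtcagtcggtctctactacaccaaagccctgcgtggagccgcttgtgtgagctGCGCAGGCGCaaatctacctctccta
Ndufs5: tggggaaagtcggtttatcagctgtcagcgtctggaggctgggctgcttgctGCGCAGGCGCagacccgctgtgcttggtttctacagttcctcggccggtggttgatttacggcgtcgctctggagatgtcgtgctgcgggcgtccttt
Ndufb4: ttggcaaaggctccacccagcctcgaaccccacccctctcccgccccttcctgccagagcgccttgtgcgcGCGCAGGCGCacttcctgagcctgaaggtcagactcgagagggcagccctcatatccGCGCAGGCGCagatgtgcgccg
Ndufaf4: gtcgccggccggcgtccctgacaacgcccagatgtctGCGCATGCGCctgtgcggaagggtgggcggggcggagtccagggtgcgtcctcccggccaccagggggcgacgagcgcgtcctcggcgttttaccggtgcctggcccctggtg
Ndufc1: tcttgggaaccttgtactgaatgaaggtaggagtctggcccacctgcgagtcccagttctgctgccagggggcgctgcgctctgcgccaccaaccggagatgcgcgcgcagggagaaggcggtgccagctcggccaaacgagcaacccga

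Of the 44 genes, 39 had an entry in the promoter table. In windows of 250 bases before to 50 after the start, and on both strands, the wider form was found for 7 of the 39 genes (17.9%), namely Ndufa5, Ndufa6, Ndufa8, Ndufb4, Ndufs5, Ndufaf4 and Ndufaf5, against 5.19% of all 27025 genes in that table. The exact palindrome, with A as the free base, is part of the wider form. It was found for Ndufaf4 and Ndufaf5, and in 1.07% of all genes. The receptor motif TCAAGGTCA was found for 0 of the 39 and in 0.466% of all genes. CCAAT was found for 13 of the 39 (33.3%) and in 41.1% of all genes. The 7 genes with the wider form had a median KO minus WT difference of -0.17 on the log2 scale, with 6 lower, and the 32 without it a median of -0.15, with 31 lower.

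Each array had the same trimmed mean signal. Array medians ran lower in KO, from 43.1 to 45.0 against 44.7 to 47.3 in WT. As a check of RNA integrity, GAPDH had log2 ratios of the 3′ over the 5′ probe set from -0.46 to -0.44 in KO and from -0.49 to -0.43 in WT. The same ratios for beta-actin were higher, from 1.04 to 1.17 in KO and from 1.03 to 1.24 in WT. All 5 probe sets of Ppargc1a, the gene of PGC-1alpha, were lower in KO, by -1.93 to -1.12 on the log2 scale, and passed the threshold (largest limma adjusted p = 0.0083). Markers of medium spiny neurons, the main striatal cell type, were bright on all arrays, with a lowest single signal of 680.5 among the 7 genes measured. Of 10 marker lists, the summed signal did not overlap between the genotypes in 2. Parvalbumin interneuron markers summed to 3885 to 4543 in KO and 4619 to 6756 in WT, with 4 of 5 lower (median difference -0.34) and 0 passing. Most of that sum was Cplx1, and Pvalb itself overlapped. Choroid plexus markers summed to 2872 to 3910 in KO and 1500 to 2442 in WT, with Ttr, most of the sum, passing the threshold and the other 3 overlapping. Oligodendrocyte markers, whose sums overlapped, were lower in 5 of 5 (median difference -0.18, 0 passing), and thalamus markers higher in 4 of 4 (median 0.68, 0 passing). No marker of these lists was at 0, and their part in the results below was not tested. In bulk tissue, fewer cells of a type and less RNA per cell cannot be told apart.

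Nduf transcripts were slightly lower in KO striatum in 41 of 44 genes, each by a small amount and none past the threshold. The median difference was -0.15 on the log2(signal + 16) scale, a signal 9.80% lower, against -0.01 over the 12323 named genes tested and -0.0045 over all 27022 probe sets. Among named genes in general, 51.8% had a negative difference. The threshold was an adjusted p under 0.05 in limma over all probe sets tested, which 0.446% of named genes passed in either direction, and 0 of the 44 Nduf genes passed (smallest adjusted p = 0.19). At an unadjusted p under 0.05, 16 Nduf genes were lower and 0 higher, where 5.61% of named genes were lower. That count was 6 with arrays median-centred, 5 when limma used no intensity trend, and 8 without KO 1, 8 without WT 2 and 10 without KO 2. All 3 KO mice read below all 3 WT mice for 20 of the 44, where 8.48% of named genes did so. With arrays centred on their median this held for 13. That centring gave a median difference of -0.10 for the Nduf genes and 0.04 for all probe sets. The shares of named genes were not counted again under these changes.

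**Figure D1:**
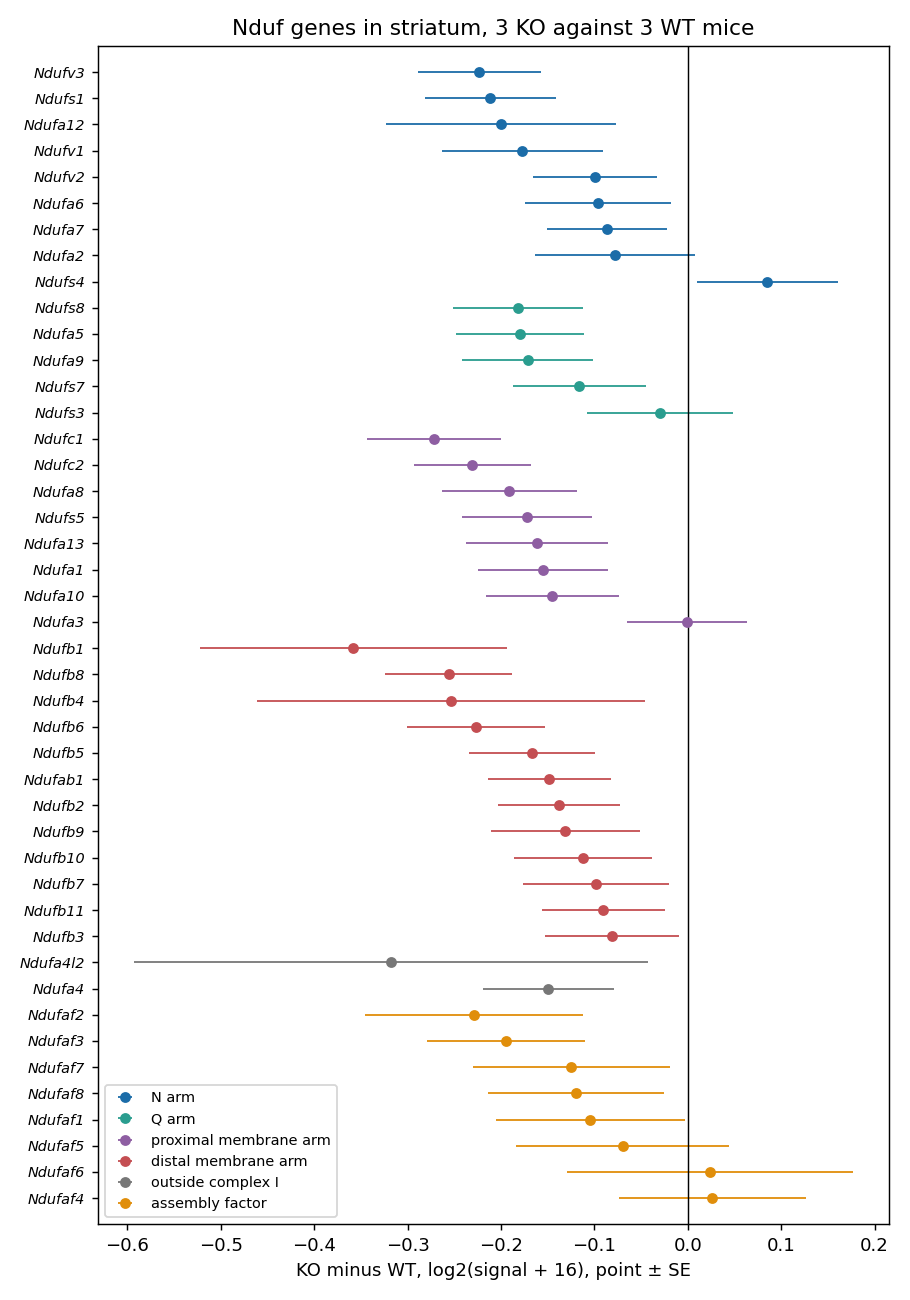
KO minus WT difference on the log2(signal + 16) scale (x axis) for each of the 44 Nduf genes (y axis), points with SE from limma (3 KO and 3 WT mice), coloured by place in complex I. All points but Ndufs4, Ndufaf4 and Ndufaf6 lie below 0, and that of Ndufa3 lies on the line (-0.0011).

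The shift was shared by the KO mice. Relative to the WT mean of each gene, the median over the 36 subunits was -0.15 in KO 1, -0.18 in KO 2 and -0.14 in KO 3, and 0.02, 0.01 and -0.02 in WT 1, WT 2 and WT 3. So the per-mouse medians of subunits did not overlap between genotypes. KO 1 was below the WT mean for 40 of the 44 genes, KO 2 for 39 and KO 3 for 40. The lowest of the 6 arrays was a KO array for 41 of the 44 genes, KO 2 in 18, KO 3 in 16 and KO 1 in 7. Among WT mice, WT 3 had the lowest median and lay below the WT mean for 29 genes. Without KO 3 the median over all 44 genes was -0.14.

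**Figure D2:**
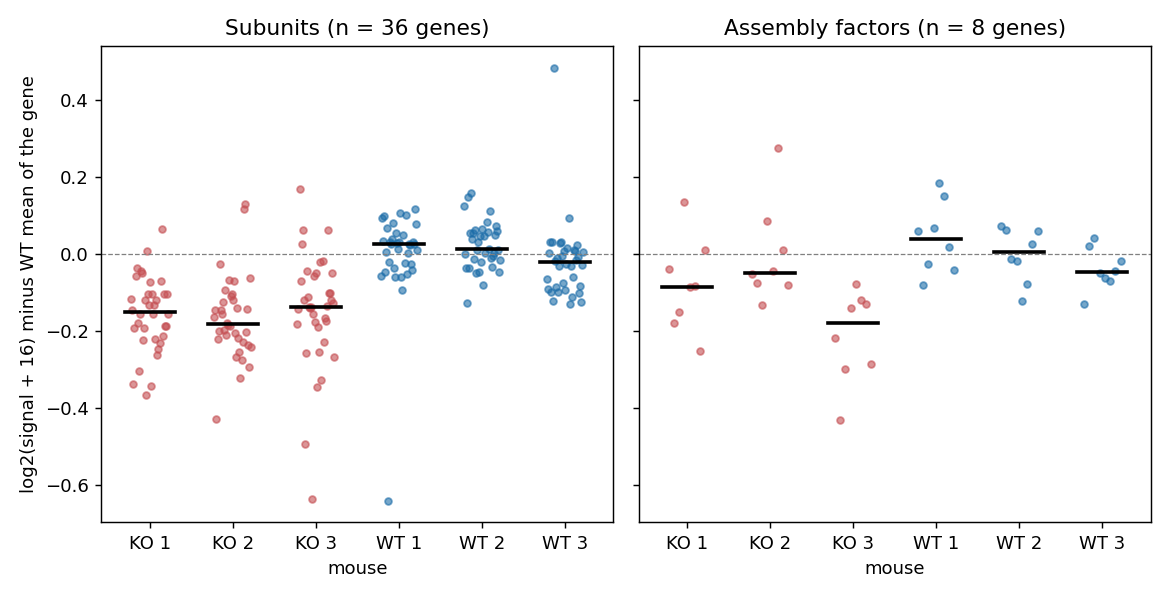
Log2(signal + 16) of each gene minus its WT mean (y axis) in each mouse (x axis), for 36 subunits (left) and 8 assembly factors (right), with points for genes and bars for the median. Subunit medians lie between -0.18 and -0.14 in KO mice and between -0.02 and 0.02 in WT mice, and the assembly factor medians of KO 2 (-0.049) and WT 3 (-0.047) lie almost level.

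Bright genes in general centred near 0. Of the 36 subunits, 30 had a mean log2 signal above 10, and all 30 were lower (median -0.15). The 1184 named genes above that signal had a median of 0.01, and 46.5% of them were lower. Within the subunits, the 18 dimmer probe sets had a median of -0.16 and the 18 brighter ones -0.16.

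**Figure D3:**
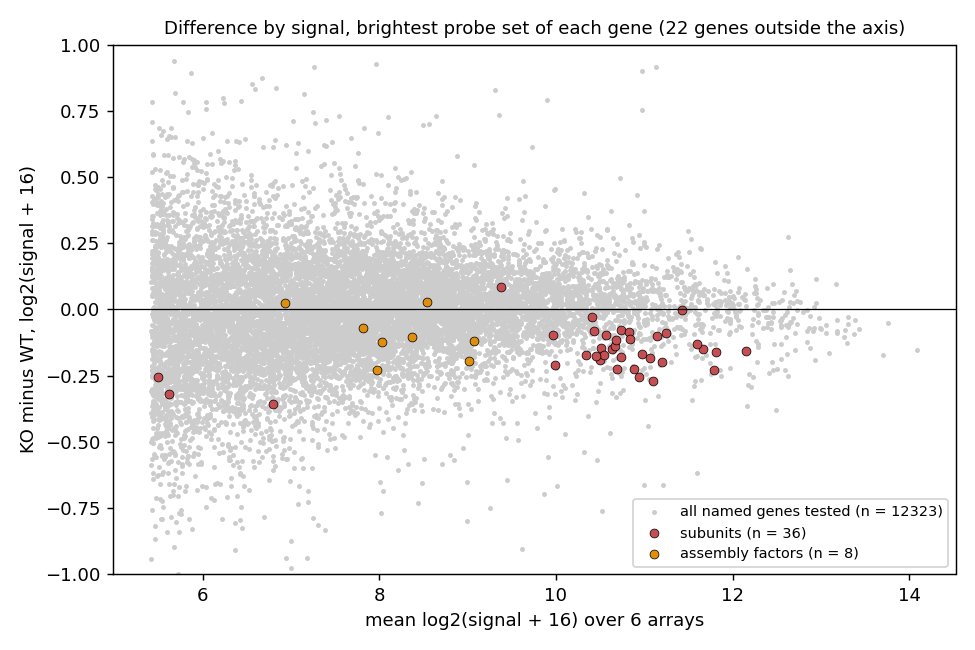
KO minus WT difference (y axis, log2 scale) against mean log2(signal + 16) over 6 arrays (x axis), for the brightest probe set of each of 12323 named genes (grey), the 36 subunits (red) and the 8 assembly factors (orange), with 22 genes outside the axis. Above a mean of 10 the 30 subunits all lie below 0, around a median of -0.15, while the grey points there centre on 0.01.

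The core subunits, which carry the flavin, the iron-sulphur clusters and the ubiquinone site, were lower in 6 of 6 measured (median -0.15), and 3 of the 6 were lower without overlap between genotypes, the order that 8.48% of named genes had. In the N part, Ndufs1, which holds several iron-sulphur clusters, read 919, 920 and 957 in KO and 1102, 1056 and 1087 in WT. The highest KO mouse lay below the lowest WT mouse, and the difference was -0.21 (SE 0.07, limma adjusted p = 0.33). Ndufv1, the subunit that binds NADH and the flavin, read 1295, 1201 and 1427 in KO and 1602, 1488 and 1352 in WT. KO 3 lay above WT 3, so the groups overlapped (difference -0.18, SE 0.09, limma adjusted p = 0.58). Ndufv2, its iron-sulphur partner, read 2161, 2225 and 2126 in KO and 2453.5, 2248 and 2280 in WT. The groups did not overlap but lay close (difference -0.10, SE 0.07), and a dimmer Ndufv2 probe set, uneven between mice, gave 0.30 (SE 0.20).

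The core subunits of the Q part differed among themselves. Ndufs8, an iron-sulphur subunit of the stem, read 1983, 1916 and 2078 in KO and 2300, 2356 and 2133 in WT. Its groups did not overlap (difference -0.18, SE 0.07, limma adjusted p = 0.42), and all 6 of its probe sets were lower, by -0.21 to -0.04. Ndufs7, which carries the last cluster before ubiquinone, read 1569, 1526 and 1570 in KO and 1724, 1773 and 1570 in WT. WT 3 lay level with KO mice there, and the difference was -0.12 (SE 0.07). Ndufs3, a core protein of the stem without a cluster, read 1298, 1478 and 1239 in KO and 1384, 1357 and 1347 in WT. The KO mice spanned the WT mice, and the difference of -0.03 (SE 0.08) became 0.02 without KO 3 and 0.01 with arrays centred on their median. Ndufs6 and Ndufa11 were not analysed here.

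The accessory subunits, which surround and stabilise the core, were lower in 27 of 28 measured (median -0.16). Of the 28, 16 were lower without overlap, against 8.48% of named genes, and 1 (Ndufs4) was higher without overlap. By place, the median was -0.10 for 9 genes of the N part, -0.17 for 5 of the Q part, -0.17 for 8 of the proximal membrane arm and -0.14 for 12 of the distal membrane arm, core subunits included. Groups without overlap and lower in KO numbered 4 of 9, 3 of 5, 6 of 8 and 6 of 12, beside the same 8.48%. The differences between these places were not tested, and the ranges of single genes overlap widely.

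The 3 smallest p-values belonged to accessory subunits of the membrane arm, while Ndufv3, Ndufs1 and Ndufa5 of the matrix arm ranked 4, 6 and 8. Ndufc1, a small membrane subunit, read 1986, 1904 and 2035 in KO and 2302, 2580.0 and 2288.5 in WT. WT 2 stood highest and no KO mouse reached the WT range (difference -0.27, SE 0.07, limma adjusted p = 0.19). A second Ndufc1 probe set gave -0.25. Its neighbour Ndufc2 read 3224, 3161 and 3415 in KO and 3837, 3805 and 3858 in WT. The WT mice lay close together above all KO mice (difference -0.23, SE 0.06, limma adjusted p = 0.21), and the other Ndufc2 probe sets tested gave -0.34 and -0.23.

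Ndufb8, of the distal membrane arm, read 1835, 1838 and 1702.5 in KO and 2105.5, 2228 and 2093 in WT. The groups were apart by more than the spread within either (difference -0.26, SE 0.07, limma adjusted p = 0.19). Ndufb6, of the same arm, read 1595, 1476 and 1488 in KO and 1665, 1780 and 1900 in WT. KO 1 lay just below WT 1 (difference -0.23, SE 0.07, limma adjusted p = 0.32). Ndufa8, which faces the intermembrane space and holds a match to the wider NRF-1 form in the promoter printed above, read 1308, 1320 and 1389 in KO and 1572, 1597 and 1428 in WT. WT 3 lay nearest to the KO mice (difference -0.19, SE 0.07).

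In the matrix arm, Ndufv3, an accessory protein of the tip, read 1815, 1709 and 1678 in KO and 2039.5, 2004 and 2034 in WT. The groups were well apart (difference -0.22, SE 0.07, limma adjusted p = 0.25). Ndufa5, an accessory protein of the stem, read 1612.5, 1648 and 1502 in KO and 1772, 1849 and 1775 in WT. No KO mouse reached the WT range (difference -0.18, SE 0.07, limma adjusted p = 0.42), and its second probe set gave -0.21. For each of these 8 members the exact permutation test gave p = 0.1, below which a test of 3 mice against 3 cannot go.

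**Figure D4:**
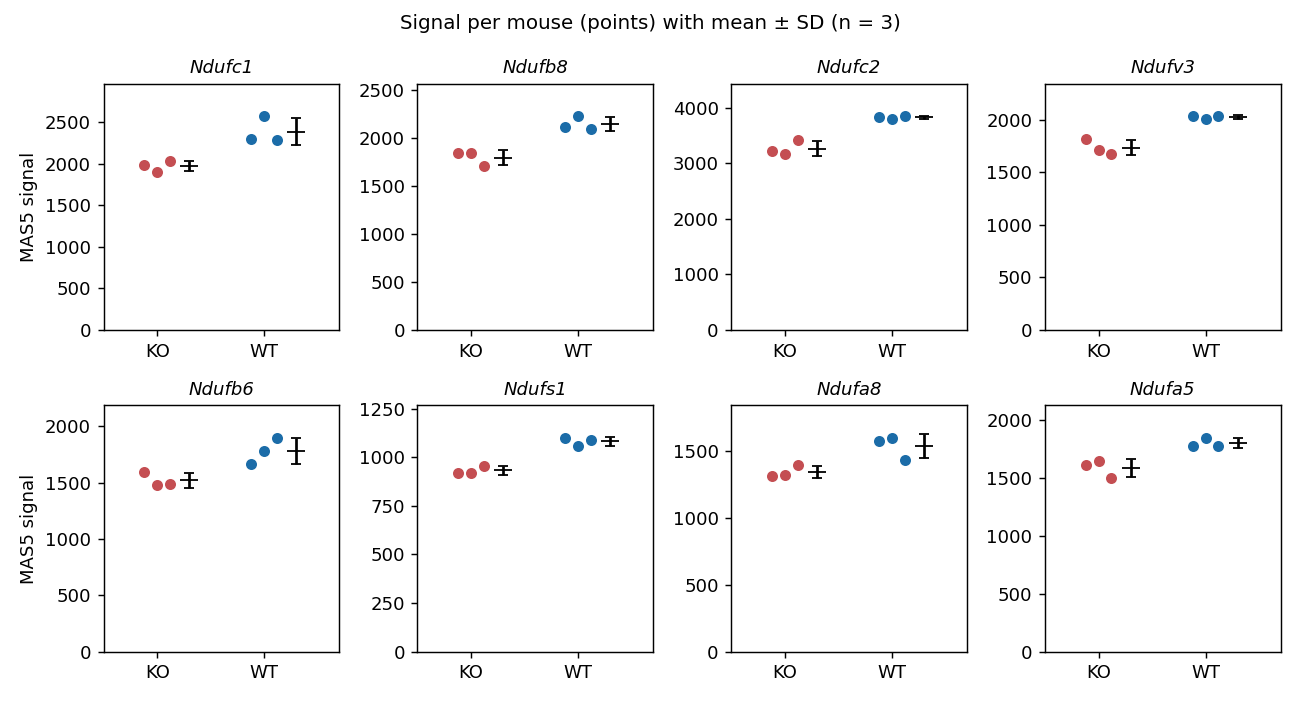
MAS5 signal (y axis, from 0) in each KO and WT mouse (points), with mean and SD (n = 3), for the 8 Nduf genes with the smallest limma p. In all 8 the 3 KO points lie below the 3 WT points, by 11.7% (Ndufa5) to 17.2% (Ndufc1) on the fitted scale.

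Other accessory subunits had smaller or less even differences. Ndufs5 (-0.17), Ndufb5 (-0.17), Ndufa9 (-0.17), Ndufa1 (-0.16), Ndufab1 (-0.15), the mitochondrial acyl carrier protein, Ndufa10 (-0.14), Ndufb2 (-0.14), Ndufa7 (-0.09) and Ndufb1 (-0.36) were lower without overlap. Ndufb1 was dim, at 81.4, 103.8 and 64.7 in KO and 104.5, 112.3 and 112.2 in WT, its SE was 0.16, and its difference without KO 3 was -0.22. Ndufa13 (-0.16), Ndufb9 (-0.13), Ndufb10 (-0.11), Ndufb7 (-0.10), Ndufa6 (-0.10), Ndufb11 (-0.09), Ndufb3 (-0.08) and Ndufa2 (-0.08, or -0.13 without KO 3) were lower with overlap. Ndufb4 (-0.25) was read by a probe set near the filter signal of 26.8, at 25.6 ± 4.7 in KO and 33.4 ± 3.3 in WT (SD, n = 3). Ndufa12 gave -0.20 with a KO 3 reading of 2819 that lay above all WT mice, and -0.38 without KO 3, while its next brightest probe sets gave -0.28 each.

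Ndufs4 and Ndufa3 stood apart from the other subunits. Ndufs4, an accessory protein of the N part whose loss in mice is known to cause a Leigh-like brain disease, read 659, 690 and 658 in KO and 618, 631 and 640 in WT. All KO mice lay above all WT mice, an order seen for 1 of the 44 genes and for 6.64% of named genes, and the difference was 0.09 (SE 0.08, limma adjusted p = 0.79). Its other probe sets tested gave 0.06 and -0.20, so the direction depends on the probe set. The mean over all its tested probe sets, the brightest included, gave -0.02. Ndufa3, a small membrane subunit, read 2664, 2685 and 2857 in KO and 2744, 2668 and 2798 in WT, fully interleaved, with a difference of -0.033 without KO 3. A second bright Ndufa3 probe set gave -0.08, with all KO mice below all WT mice.

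The assembly factors were lower in 6 of 8, with a median of -0.11. Of the 8, 1 was lower without overlap, a share near the 8.48% of named genes. Their median was -0.085 in KO 1, -0.049 in KO 2 and -0.18 in KO 3, against 0.038, 0.0060 and -0.047 in the WT mice. All KO medians lay below all WT medians, with KO 2 and WT 3 almost level. Without KO 3 the median was -0.06. The subunit median minus the assembly factor median was -0.07, -0.13 and 0.04 in KO 1, KO 2 and KO 3 and -0.01, 0.01 and 0.02 in WT mice. KO 3 went the other way from KO 1 and KO 2, and the KO values spanned the WT values. The assembly factors also had larger SEs, with a median of 0.10 against 0.07 for subunits.

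Factors that build the Q part gave mixed values. Ndufaf3 read 483.5, 489 and 434 in KO and 528, 533 and 554 in WT. It was the assembly factor without overlap (difference -0.19, SE 0.08, limma adjusted p = 0.50). Its partner Ndufaf4 read 390, 376 and 319.5 in KO and 371.5, 349 and 341 in WT. KO 1 was highest and KO 3 lowest of all mice, and the difference of 0.03 (SE 0.10) was 0.11 without KO 3 and -0.06 by its second probe set. Ndufaf5, which hydroxylates Ndufs7, read 201, 208 and 202 in KO and 246, 196 and 205 in WT. Only WT 1 stood above the KO mice, and the difference of -0.07 (SE 0.11) became 0.02 without WT 1.

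Ndufaf8, a partner of Ndufaf5, read 549, 514 and 444 in KO and 529, 569 and 538 in WT. KO 1 lay within the WT range (difference -0.12, SE 0.09, or -0.036 without KO 3), and a dimmer probe set gave -0.42 (SE 0.17). Ndufaf7, a methyltransferase that acts on the stem, read 214, 259 and 234 in KO and 261, 262.5 and 249 in WT. KO 2 lay within the WT range (difference -0.12, SE 0.11).

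The remaining factors are Ndufaf1, Ndufaf6 and Ndufaf2. Ndufaf1, which builds the membrane arm, read 317, 314 and 278 in KO and 341, 344 and 297 in WT. WT 3 lay below KO 1 and KO 2 (difference -0.10, SE 0.10, or -0.047 without KO 3). Ndufaf6, an early factor, read 97.9, 130 and 95.1 in KO and 118, 98.3 and 99.0 in WT. The groups were interleaved and the difference of 0.02 (SE 0.15) became -0.10 without KO 2 and 0.096 without KO 3. Ndufaf2, a relative of Ndufa12 that acts late when the tip is joined, read 225, 243 and 186 in KO and 242, 268.5 and 260.3 in WT. KO 2 lay just above WT 1 (difference -0.23, SE 0.12, limma adjusted p = 0.60), and the difference without KO 3 was -0.13.

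A pair of genes with Nduf symbols are now counted outside complex I. Ndufa4, since assigned to cytochrome c oxidase, read 3013, 3084 and 3142.5 in KO and 3582, 3551 and 3136 in WT. WT 3 lay among the KO mice, and the difference was -0.15 (SE 0.07, limma adjusted p = 0.56). Ndufa4l2, its hypoxia-inducible relative, was dim, at 28.6, 33.4 and 23.1 in KO and 19.3, 45.4 and 61.0 in WT. The WT mice spanned the KO mice (difference -0.32, SE 0.28), and the difference ran from -0.64 without WT 1 to -0.076 without WT 3. Without both genes the subunit median stayed at -0.16.

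The choice of probe set altered single genes more than the count. Across 82 Nduf probe sets tested, 74 were lower and 8 higher, where 51.1% of all probe sets were lower. In limma 0 passed the threshold, which 0.47% of all probe sets passed, and 27 had an unadjusted p under 0.05, all lower (smallest limma adjusted p = 0.17, a dimmer probe set of Ndufc2). Of 21 genes with more than 1 probe set tested, 15 were lower by all of them, 0 were higher by all, and 6 were mixed. The mixed genes were Ndufa3, Ndufa7, Ndufaf4, Ndufb2, Ndufs4 and Ndufv2. Probe sets of 1 gene share its transcripts and the same 6 arrays, so they are not independent of each other. The gene table also lists the copies Ndufb4b, Ndufb4c, Ndufs5-ps and Ndufab1-ps, and signal from such near-identical transcripts cannot be told apart for Ndufb4, Ndufs5 and Ndufab1.

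The other complex I genes gave mixed values. Of the subunits encoded in mitochondrial DNA, mt-Nd5 (ND5 in the array annotation), a proton pump of the distal membrane arm, was measured, by the brightest of all 45037 probe sets by mean log2 signal. It read 16404, 15823 and 17407 in KO and 18698, 21260 and 15645 in WT. WT 3 was the lowest of all mice, so the groups overlapped (difference -0.15, SE 0.10, limma adjusted p = 0.69), and the difference was -0.049 without WT 2 and -0.27 without WT 3. Of 14 assembly proteins without an Nduf symbol, 9 were lower and 5 higher (median -0.04), 0 passed the threshold, 1 had an unadjusted p under 0.05, lower in KO, and 0 were lower without overlap, beside 5.61% and 8.48% of named genes. Those with the smallest p were Lyrm2 (-0.26, SE 0.11), a protein of the LYR family, Dmac2 (-0.28, SE 0.15), a factor for the distal membrane arm, and Tmem70 (0.14, SE 0.08), which is known from ATP synthase assembly as well. For Tmem70, all 3 KO mice lay above all WT mice, an order that 6.64% of named genes had. Whether these proteins differ from the Nduf genes was not tested.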

How the data were processed

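The deposited intensity values are 1 MAS5 signal per probe set and array on a linear scale, per the submitters' processing notes, and were scaled to the same trimmed mean. Scaling removes any difference in total RNA, so changes are relative to the rest of the array. Their version and target value: not given in the sources used here. Of 45037 probe sets, 34945 have a single symbol in the platform annotation, 932 several and 9160 none, and 34741 matched GRCm38.p6 names. The scale was log2(signal + 16), and the dimmest 40% of probe sets by mean log2 signal (up to a signal of 26.8) were left out. Differences are understated for dim probe sets. KO and WT were compared with limma 3.58.1 in R 4.3.3 (lmFit, eBayes with an intensity trend), adjusted by Benjamini-Hochberg over 27022 probe sets. The fit was tested on simulated data with changes larger than those of the Nduf genes. That test does not bear on differences as small as theirs. Replicates are separate mice, and 3 arrays per group limit the precision. Permutation tests are exact and two-sided. Values of every mouse are given for the nuclear core subunits, the 8 members with the smallest p, members higher in KO, all assembly factors, Ndufa4 and Ndufa4l2, and, after their values were seen, for mt-Nd5, Ndufa3 and Ndufb1. Of other complex I genes, the 3 with the smallest p are named. The members and lists were chosen with earlier results of these data known, so medians and counts over them carry no test.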

Additional observations from a re-analysis of the deposited data

How the results depend on the processing

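The alternatives were quantile normalization, centring on the array median, offsets of 1 and 64, no filter and a 60% filter, eBayes robust or with no trend, a plain equal-variance test, blocking on the replicate number, a threshold of 0.1 on the adjusted p, other rules for a gene's probe set, members without Ndufa4 and Ndufa4l2, and leaving out each array. Under all of them 0 Nduf genes were called, and 39 to 42 genes were lower in KO. The genes numbered 42 with the 60% filter and without Ndufa4 and Ndufa4l2, and 44 otherwise. Some settings called few probe sets of any kind. Of all 27022 tested, the plain test called 0 and limma with no trend 25, against 127 in the main fit. So the 0 of the plain test says nothing of these genes in particular. Centring on the array median gave a median of -0.10 for all Nduf genes and -0.11 for subunits, 6 genes lower at an unadjusted p under 0.05 and 13 lower without overlap. Genes lower at an unadjusted p under 0.05 numbered 5 when limma used no intensity trend. With the replicate block they numbered 8. Deviations from the group means correlated at -0.03 to 0.02 between same-numbered mice and at -0.04 to 0.05 between the others. These correlations cannot settle whether the numbers pair the mice. Leaving out 1 array, genes lower at an unadjusted p under 0.05 numbered 8 to 17. Genes lower without overlap numbered 22 to 30, a count that cannot fall below that of all 6 arrays when 1 is left out. Shares of named genes were not counted under these alternatives. The median with 1 array left out ran from -0.17 to -0.13 for all genes and from -0.18 to -0.13 for subunits. For assembly factors it ran from -0.14 to -0.06. Of 24 genes followed singly, 18 kept their sign throughout. Averaged over probe sets, Ndufaf4 gave -0.018, Ndufs4 -0.019 and Ndufv2 0.021, and by the dimmest one -0.062, -0.20 and 0.30. With centring Ndufs3 gave 0.014. Leaving out 1 array, Ndufaf4 ran from -0.028 to 0.11, Ndufaf5 from -0.13 to 0.023, Ndufaf6 from -0.10 to 0.099 and Ndufs3 from -0.10 to 0.023. The causes were not tested.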
